A study of Mus musculus with 12 samples.

Results

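The genes described here encode the subunits of the oxidative phosphorylation machinery, together with cytochrome c, complex I assembly factors and the inhibitor of the ATP synthase. They were chosen by gene symbol, with earlier results of these data known. Every row whose mouse symbol starts with Nduf, Uqcr, Atp5 or Cox4 to Cox8 was taken, as were Sdha, Sdhb, Sdhc, Sdhd, Cyc1, Cycs, Cyct and Atpif1, and 1 pseudogene row was left out. This gave 98 of the 22221 rows of the expression table. They comprise 40 genes named as complex I subunits, 8 complex I assembly factors, 4 complex II subunits, 11 genes of complex III with cytochrome c, 17 of complex IV and 18 of complex V with its inhibitor. The rule also covers Cox8b and Ndufb1, which were not analysed here.

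Oxidative phosphorylation passes electrons from NADH (complex I) and succinate (complex II) through complex III and cytochrome c to oxygen at complex IV, and the ATP synthase (complex V) uses the proton gradient that this builds. Most subunits come from nuclear genes used in all tissues, but several positions in the chain have a general gene and a tissue-specific copy. In testis, Cyct replaces the general cytochrome c gene Cycs in meiotic and later germ cells, and Cox6b2, Cox7b2 and Cox8c are testis isoforms of the complex IV subunits encoded elsewhere by Cox6b1, Cox7b and Cox8a.

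RNA sequencing of ICR mouse testis gave 12 libraries in 4 groups of 3. Con mice had no treatment. The Sa, IMC and IMA10 mice all had busulfan once when 3 weeks old, a DNA-alkylating agent toxic to proliferating germ cells. Sa mice then received saline, IMC mice gut microbiota from donors given ddH2O, and IMA10 mice microbiota of donors that had alginate oligosaccharide (10 mg/kg body weight). Dosing with microbiota lasted 2 weeks, and the testes were taken 3 weeks later. The labels give no age for Con, no genotype beyond the strain and no number of animals per library. They mention cultured testis but name no culture step. The column names of the table start differently for Con than for the busulfan groups, so the untreated state and a possible batch cannot be told apart. Nothing says that the libraries of a group came from separate animals, so p-values here reflect only how far these libraries spread, which may be technical.

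Values are FPKM, a level per transcript length, and the read depth behind them is unknown. Cell type markers came from lists chosen with earlier results of these data known. Those of testis germ cells were present in every library. The summed FPKM of 8 elongating spermatid markers was 39300 to 41510 in Con and 33.1 to 2028 in the busulfan libraries other than IMA10 replicate 3, which stood at 3493. Over 6 spermatocyte markers the sums were 3993 to 4093 in Con, 130 to 1731 in those 8 libraries and 3882 in IMA10 replicate 3. Over 7 Sertoli cell markers they were 384 to 459, 6748 to 12904 and 2183, and over 6 Leydig cell markers 608 to 654, 4244 to 13594 and 1862. Sums for spermatogonia were 42.0 to 48.3, 164 to 244 and 104, and those for round spermatids 725 to 742, 15.0 to 146 and 460.4. Macrophage sums were 28.6 to 37.1, 169.8 to 353 and 62.9, blood sums 35.6 to 50.1, 205 to 315 and 73.9, and the 1 epididymis marker in the table was at most 0.30 in any library. IMA10 replicate 3 lay outside the range of the other 8 busulfan libraries in each of these sums but the epididymis marker, and results that rest on it are given with and without it. It was singled out after its values were seen, so results without it are a description. In bulk tissue, fewer cells of a type and less RNA per cell cannot be told apart. The part that these marker shifts play in the changes below was not tested.

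The starts of 2 of the 4 testis and general gene pairs are shown. In all 4 pairs, 8 of the 9 busulfan libraries had less of the testis gene and more of the general gene than Con. These values therefore do not set the 2 pairs apart. Each line is the 200 bases before the RefSeq start (build GRCm38.p6, 5′ to 3′ on the strand of the gene), with matches to 4 searched motifs in capitals. The nearest start of the same gene in the GENCODE annotation was at the same base for Cox7b2 and Cox7b, 3 bases downstream for Cyct and 31 bases downstream for Cycs.
Cyct, chr2:76360454-76360653, minus strand: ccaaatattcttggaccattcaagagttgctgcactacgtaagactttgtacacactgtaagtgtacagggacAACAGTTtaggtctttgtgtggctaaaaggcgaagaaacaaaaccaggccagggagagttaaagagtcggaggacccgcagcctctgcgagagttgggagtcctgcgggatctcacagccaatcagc
Cycs, chr6:50566570-50566769, minus strand: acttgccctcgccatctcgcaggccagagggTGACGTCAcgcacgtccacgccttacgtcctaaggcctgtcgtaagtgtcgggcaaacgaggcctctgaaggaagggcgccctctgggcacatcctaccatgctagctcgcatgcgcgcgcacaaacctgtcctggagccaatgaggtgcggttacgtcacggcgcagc
Cox7b2, chr5:71548206-71548405, minus strand: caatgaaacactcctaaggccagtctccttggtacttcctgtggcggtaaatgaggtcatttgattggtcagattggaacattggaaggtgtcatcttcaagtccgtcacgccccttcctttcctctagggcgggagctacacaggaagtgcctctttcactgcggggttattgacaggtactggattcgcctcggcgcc
Cox7b, chrX:106015500-106015699, plus strand: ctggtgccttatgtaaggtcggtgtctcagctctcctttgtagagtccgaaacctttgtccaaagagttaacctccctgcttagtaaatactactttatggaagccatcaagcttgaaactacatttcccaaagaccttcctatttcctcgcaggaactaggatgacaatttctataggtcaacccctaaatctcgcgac

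The capitals in the Cyct window are the MYB motif AACNGTT, from 127 to 121 bases before the start. Those in the Cycs window are the cyclic AMP response element TGACGTCA, from 169 to 162 bases before it. Neither Cox7b2 nor Cox7b held a match in this window. CpG dinucleotides numbered 6 before Cyct and 19 before Cycs, and 8 before Cox7b2 and 5 before Cox7b. A window before a RefSeq start was at hand for 79 of the 98 genes, and Cox8c was among those without one. Both strands were searched for all motifs, and the windows printed hold no overlapping matches. The NRF1 motif (GCGC, any base, then TGCGC) was found in 15 of these 79 windows (19.0%), against 8.06% of the windows of genes tested for expression and 3.97% of all windows. The ETS motif CCGGAAG stood in 12 (15.2%, against 13.2% and 7.15%), the cyclic AMP response element in 5 (6.33%, against 2.73% and 1.69%) and the MYB motif in 2 (2.53%, against 3.05% and 3.37%). A match is a run of letters and not a shown binding site.

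The testis isoforms were the more abundant member of each pair in untreated testis, and the general gene held a larger share of each pair in every busulfan library than in any Con library. In Con, Cox8c had the highest mean of all 98 genes. The values below are FPKM for replicates 1, 2 and 3 of each group, in that order.

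Cyct (NCBI Gene 13067), testis cytochrome c, stood at 105, 119 and 111 in Con, 76.5, 52.9 and 41.8 in Sa, 43.1, 42.2 and 22.2 in IMC and 3.93, 20.2 and 147 in IMA10. Cycs (NCBI Gene 13063), the general cytochrome c, stood at 3.35, 3.70 and 3.25 in Con, 21.2, 21.5 and 21.9 in Sa, 25.8, 24.6 and 33.6 in IMC and 36.8, 37.3 and 7.63 in IMA10. For Cyct the Sa and IMC libraries all lay below Con, while IMA10 held both the lowest and the highest value of the 12. For Cycs every busulfan library lay above every Con library, and IMA10 replicate 3 was the lowest of the 9.

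Cox6b2 (NCBI Gene 333182), the testis form of a complex IV subunit that faces cytochrome c, stood at 452, 439.9 and 387 in Con, 191, 105 and 90.1 in Sa, 109, 134 and 65.4 in IMC and 12.9, 52.1 and 567 in IMA10. Cox6b1 (NCBI Gene 110323), its general partner, stood at 53.9, 59.0 and 48.3 in Con, 218, 232 and 236 in Sa, 224, 235 and 323 in IMC and 281, 296 and 110.1 in IMA10. IMA10 replicate 3 lay above Con for the testis gene and was closest to Con for the general one.

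Cox7b2 (NCBI Gene 78174) stood at 194, 222 and 214 in Con, 107, 80.0 and 53.5 in Sa, 90.7, 81.8 and 37.9 in IMC and 8.64, 41.0 and 251 in IMA10. Its general partner Cox7b (NCBI Gene 66142), an X-linked gene, stood at 2.79, 1.93 and 1.93 in Con, 17.9, 24.9 and 23.7 in Sa, 21.5, 21.1 and 30.4 in IMC and 25.4, 29.2 and 6.29 in IMA10. Cox7b was thus close to the level of 1 FPKM that was used as a pseudocount in Con, so its log2 change understates its change in FPKM.

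Cox8c (NCBI Gene 75483) stood at 708, 694 and 662 in Con, 299, 185 and 157 in Sa, 189.6, 252 and 90.3 in IMC and 19.1, 78.6 and 868 in IMA10. Cox8a (NCBI Gene 12868), the general form of this small membrane subunit, stood at 32.1, 33.5 and 30.0 in Con, 220.2, 225 and 244 in Sa, 229, 261 and 358 in IMC and 329.6, 301 and 91.8 in IMA10. Groups did not overlap for Cox8a between Con and busulfan, and for Cox8c they overlapped only through IMA10 replicate 3.

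**Figure D1:**
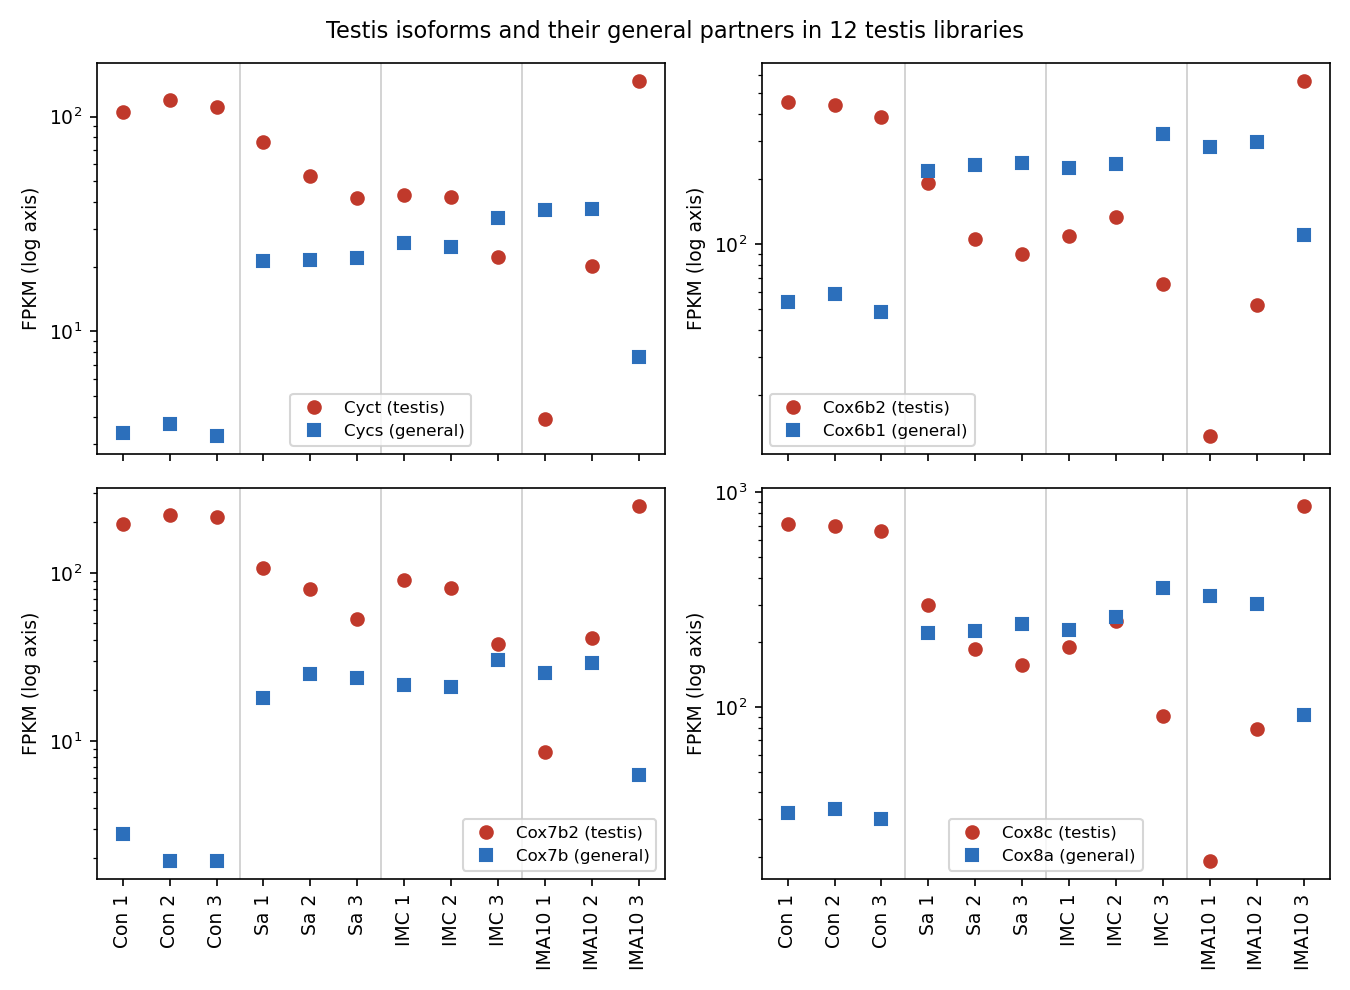
FPKM (log axis) of the 4 testis isoforms (circles) and their general partners (squares) in the 12 libraries, with vertical lines between the groups. Testis genes lie above general genes in all 3 Con libraries and in IMA10 replicate 3, and the pairs approach or cross each other in the other busulfan libraries.

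The share of each pair held by the testis gene is free of library scaling. Cyct made up 96.9 to 97.1% of the cytochrome c pair in Con, 65.7 to 78.3% in Sa, 39.8 to 63.1% in IMC and 9.65 to 95.1% in IMA10. Cox6b2 made up 88.2 to 89.3% of its pair in Con, 27.7 to 46.7% in Sa, 16.8 to 36.3% in IMC and 4.41 to 83.7% in IMA10. For Cox7b2 the ranges were 98.6 to 99.1%, 69.3 to 85.6%, 55.5 to 80.8% and 25.4 to 97.6%. For Cox8c they were 95.4 to 95.7%, 39.2 to 57.6%, 20.1 to 49.0% and 5.49 to 90.4%. In all 4 pairs IMA10 replicate 1 had the lowest share and IMA10 replicate 3 the highest among the 9 busulfan libraries, and the spermatocyte marker sums had their extremes in the same libraries.

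As log2 ratios of testis to general gene (each FPKM + 1), the 9 busulfan libraries differed from the 3 Con libraries by -4.09 for Cyct over Cycs, -4.22 for Cox6b2 over Cox6b1, -4.53 for Cox7b2 over Cox7b and -5.0 for Cox8c over Cox8a. The mean ratio of Cyct over Cycs was 4.67 ± 0.05 (SD, n = 3) in Con and 0.57 ± 1.94 (SD, n = 9) after busulfan. Each of the 4 differences had an exact two-sided permutation p of 0.00909, also after adjustment over the 4, which is the smallest that 3 libraries against 9 allow. The ratio was lower in 9 of 9 busulfan libraries than in any Con library for each pair. IMA10 replicate 3 had the highest ratio of the 9 in each pair, but its gap to the next library, 0.33 to 0.40 of the whole range, was under Dixon's critical value. Without IMA10 replicate 3 the differences were -4.53, -4.67, -4.98 and -5.48. The Sa and IMC shares overlapped in 3 of the 4 pairs and not for Cyct, and the IMA10 range spanned both groups in every pair. Differences between the busulfan groups were not tested on these shares.

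Tested gene by gene in limma with all 12 libraries, 2 of the 4 testis isoforms passed, in IMA10 alone, and all 4 general genes rose in every comparison with Con. On the log2(FPKM + 1) scale Cox8c differed from Con by -1.74 ± 1.05 (SE) in Sa, -2.07 in IMC and -2.62 in IMA10, with limma adjusted p of 0.156, 0.0951 and 0.0451. Cox6b2 differed by -1.79 ± 1.03 (SE) in Sa, -2.10 in IMC and -2.51 in IMA10, with limma adjusted p of 0.135, 0.085 and 0.0485. Cyct and Cox7b2 passed in no comparison, with IMA10 differences of -2.18 (limma adjusted p = 0.0568) and -2.17 (limma adjusted p = 0.0535). Without IMA10 replicate 3 all 4 genes passed in the comparisons of Sa, IMC and IMA10 with Con, except Cyct in Sa at -1.0 (limma adjusted p = 0.0706), and the IMA10 differences became -3.46 for Cyct, -3.97 for Cox6b2, -3.39 for Cox7b2 and -4.10 for Cox8c.

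Cycs rose by 2.35 ± 0.47 (SE) in Sa, 2.70 in IMC and 2.39 in IMA10. Cox6b1 rose by 2.07 ± 0.33 (SE) in Sa, 2.24 in IMC and 1.95 in IMA10, Cox7b by 2.85 ± 0.46 (SE) in Sa, 2.97 in IMC and 2.5 in IMA10 and Cox8a by 2.81 ± 0.41 (SE) in Sa, 3.08 in IMC and 2.68 in IMA10. The limma adjusted p of these 12 rises lay between 0.000308 and 0.00173, and all 12 also passed with median-of-ratios and quantile scaling.

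Summed levels of each pair were set against the mean of 5 complex IV subunits without a testis isoform in this set (Cox4i1, whose lung form is rare here, Cox5a, Cox5b, Cox6c and Cox7c), whose mean ranged from 305 to 330 FPKM in Con and from 257 to 417 FPKM after busulfan. Cox8c plus Cox8a came to 220.4 to 229.8% of that mean in Con, to 134 to 156% in 8 busulfan libraries and to 229.9% in IMA10 replicate 3. For Cox6b2 plus Cox6b1 the values were 143 to 157%, 112 to 126% and 162%. Cox7b2 plus Cox7b made 61.2 to 70.7%, 13.3 to 41.5% and 61.8%, and the cytochromes made 33.7 to 37.3%, 15.8 to 27.9% and 37.0%. In those 8 libraries the sum of each pair thus lay below its Con range relative to the other complex IV subunits. This comparison is a description chosen with the values in view.

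**Figure D2:**
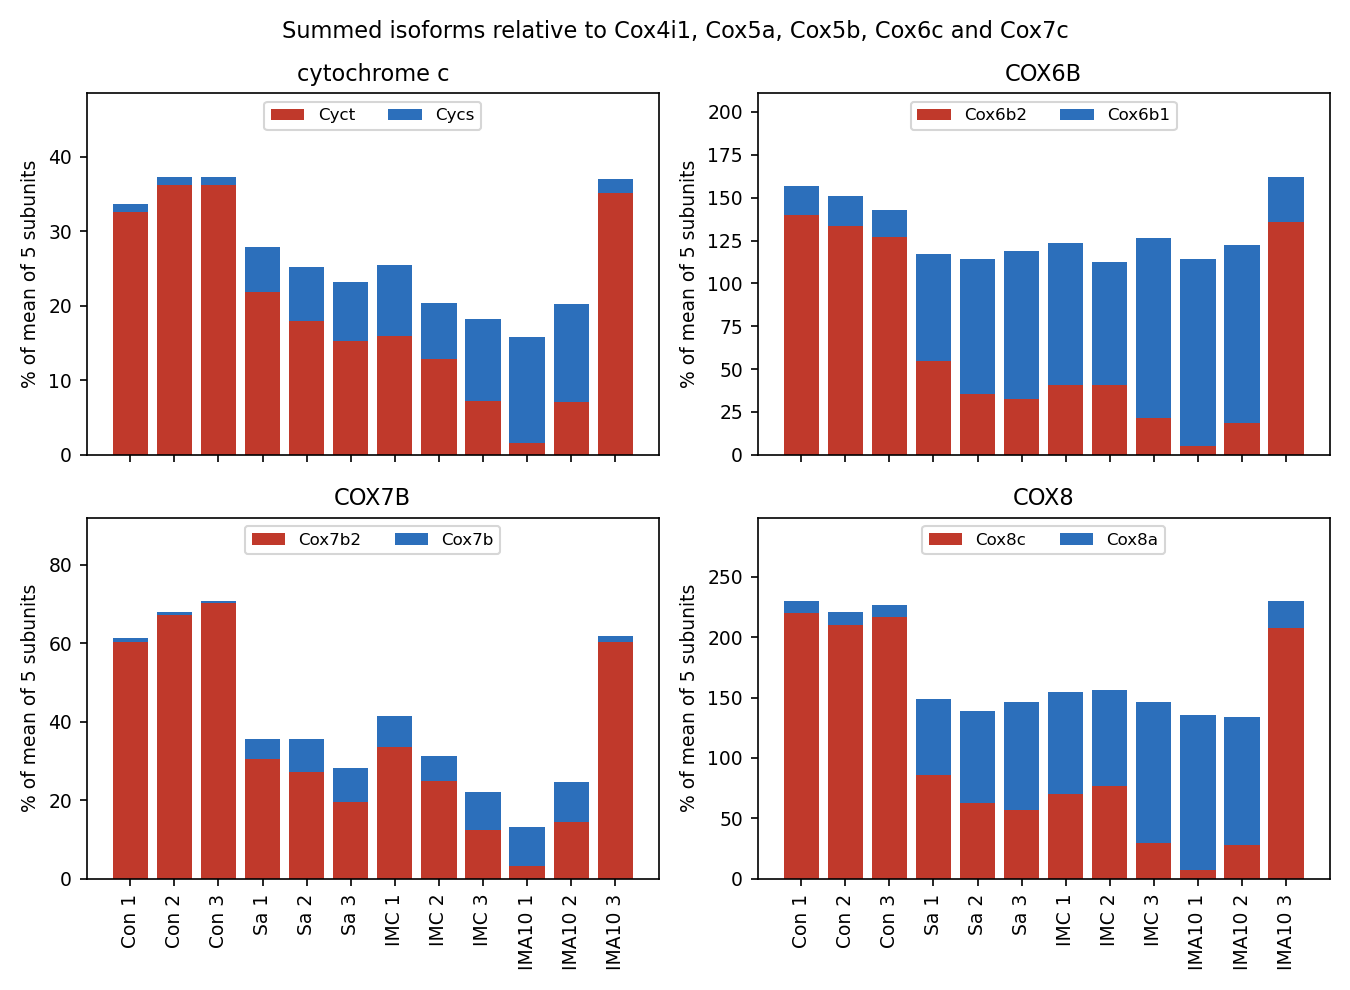
Stacked bars of testis gene (red) and general gene (blue) for cytochrome c, COX6B, COX7B and COX8 in each library, as a percent of the mean FPKM of Cox4i1, Cox5a, Cox5b, Cox6c and Cox7c. The totals of the Con libraries and IMA10 replicate 3 exceed those of the other 8 libraries in all 4 panels. In those 8 the red part is smaller and the blue part larger. Red stays the larger part of COX7B in all of them but IMA10 replicate 1, and of cytochrome c in Sa and in IMC replicates 1 and 2. It is also the larger part of COX8 in Sa replicate 1.

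Isoforms known from other tissues also differed between untreated and busulfan testis. Cox7a1, the heart and muscle form of a complex IV subunit, stood at 5.30, 2.26 and 3.54 in Con, 43.5, 33.2 and 36.0 in Sa, 53.2, 55.5 and 60.7 in IMC and 94.5, 77.5 and 20.1 in IMA10. It rose by 3.08 ± 0.48 (SE) in Sa, 3.66 in IMC and 3.58 in IMA10 (limma adjusted p of 0.000426, 0.000308 and 0.000785), the highest rise among the 96 genes tested, while its general partner Cox7a2 went from 187 ± 7.06 FPKM (SD, n = 3) in Con to 101 ± 27.8 in Sa. Cox7a2 fell, with log2 changes of -0.91 in Sa and -0.92 in IMC (limma adjusted p of 0.0484 and 0.0453), and in IMA10 its difference of -0.76 did not pass. Under quantile scaling the Cox7a2 differences of -0.50 and -0.52 passed in neither group. The summed FPKM of 6 striated muscle markers was 2.26 to 2.30 in Con and 1.97 to 4.01 after busulfan, so skeletal muscle transcripts were near 0 in every library. Peritubular myoid markers summed to 286 to 301 in Con and 149 to 415 after busulfan. Of these 4 markers 3 rose and 1 fell in each comparison with Con, with median log2 changes of 2.18 in Sa, 1.99 in IMC and 1.60 in IMA10, and their part in the rise of Cox7a1 was not tested. Fat cell markers summed to 16.3 to 17.7 and 15.3 to 74.9, with the brown fat gene Ucp1 listed at 0 in all busulfan libraries.

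Ndufa4, named for complex I but now assigned to complex IV, stood at 26.5, 25.9 and 18.4 in Con, 144, 154 and 154 in Sa, 149.7, 164 and 206 in IMC and 184, 180.2 and 59.9 in IMA10. Its relative Ndufa4l2, a gene induced by low oxygen in other tissues, stood at 19.5, 19.7 and 21.3 in Con, 13.0, 9.09 and 10.1 in Sa, 9.0, 9.12 and 6.48 in IMC and 6.04, 4.67 and 20.5 in IMA10. The Con values of the pair were about equal, and every busulfan library had more Ndufa4 than any Con library. Ndufa4 rose by 2.64 ± 0.38 (SE) in Sa, 2.83 in IMC and 2.39 in IMA10 (limma adjusted p of 0.000361, 0.000308 and 0.000955). Ndufa4l2 fell, with log2 changes of -1.22 in IMC and -1.16 in IMA10 (limma adjusted p of 0.0225 and 0.0295), also under the other scalings, and its Sa difference of -0.86 (limma adjusted p = 0.0821) did not pass.

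Cox4i2, the lung form of COX4, was rare at 0.70 ± 0.33 FPKM (SD, n = 3) in Con and 3.64 ± 1.07 in Sa, and rose by 1.44 ± 0.25 (SE) in Sa, 1.36 in IMC and 0.98 in IMA10 (limma adjusted p of 0.000682, 0.000884 and 0.00654). Cox4i1, the general form, stood at 429.8 ± 16.5 in Con and 417 ± 44.9 in Sa. Its difference from Con was -0.05 in Sa, -0.12 in IMC and -0.10 in IMA10, passed in no comparison and turned positive under quantile scaling. Cox6a2, the heart and muscle partner of Cox6a1, was 0.65 to 3.46 FPKM in Con and at most 0.87 after busulfan and fell under the filter on low values. Cox6a1 rose by 1.3 ± 0.21 (SE) in Sa, 1.35 in IMC and 1.20 in IMA10 (limma adjusted p of 0.000516, 0.000395 and 0.00117).

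**Figure D3:**
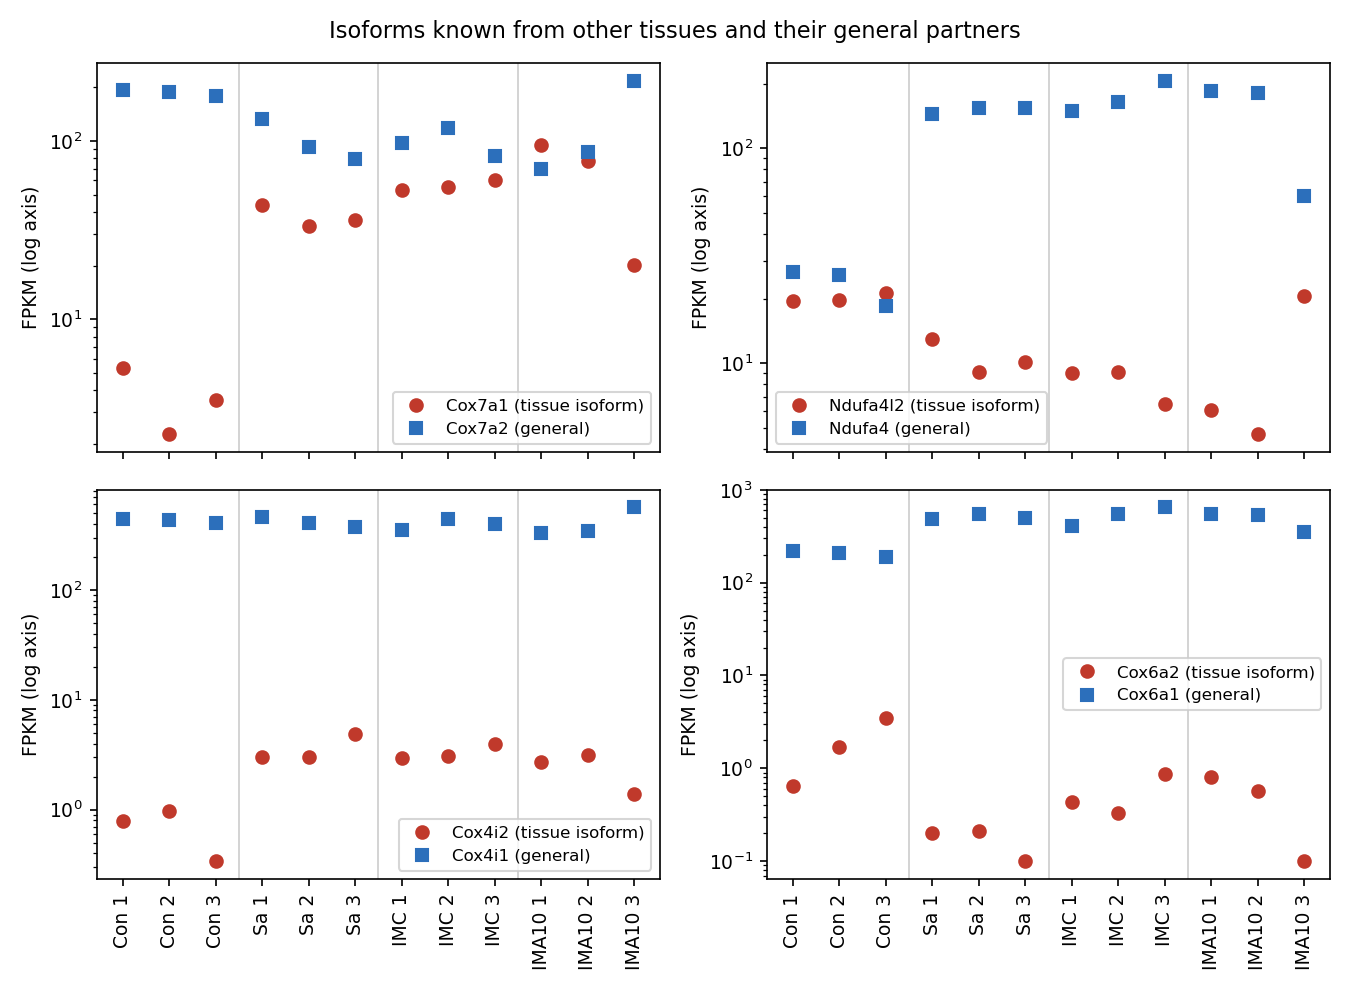
FPKM (log axis) of 4 isoforms known from other tissues (circles) and their general partners (squares) in the 12 libraries. Cox7a1 and Ndufa4 stand higher in all 9 busulfan libraries than in Con, while Cox4i1 ranges from 331 to 564 FPKM over all 12.

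Across the whole set, 96 of the 98 genes passed the filter on low values (at least 1 FPKM in at least 3 libraries), and Cox6a2 and Ndufb4b did not. In Sa, 52 of the 96 changed against Con at a limma adjusted p under 0.05, 46 upward and 6 downward, when 71.2% of the 15472 genes tested changed, 52.0% upward and 19.2% downward. In IMC 53 changed, 45 upward and 8 downward, against 74.1%, 50.8% and 23.3% of all genes. In IMA10 51 changed, 43 upward and 8 downward, against 71.6%, 47.7% and 23.9% of all genes. The shares that rose were near those of all genes. The median log2 change of the 96 was 0.31, 0.30 and 0.31, below the medians of 0.60, 0.52 and 0.41 over all genes. Without IMA10 replicate 3 the counts were 49 and 21, 48 and 17, and 45 and 24, against 55.7% and 30.0%, 53.7% and 32.2%, and 51.6% and 35.0% of all genes. The split depended on scaling. Median-of-ratios scaling, which brings the median of all genes to between -0.04 and -0.02, gave 19 rises and 49 falls in Sa, 21 and 47 in IMC and 20 and 36 in IMA10, against 37.8% and 39.2%, 38.9% and 40.7%, and 36.3% and 37.6% of all genes. Quantile scaling gave 54 and 3, 53 and 4, and 52 and 3, against 36.8% and 29.2%, 39.4% and 31.8%, and 39.0% and 28.4%. The comparisons with Con share the Con libraries.

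Under all 3 scalings, 18 genes rose and 1 fell in Sa (31.8% and 18.2% of all genes), 20 rose and 2 fell in IMC (34.9% and 21.9%) and 20 rose and 2 fell in IMA10 (34.7% and 22.5%). The 18 that rose in every comparison were Cycs, Cyc1, Uqcr11, Cox4i2, Cox6a1, Cox6b1, Cox7a1, Cox7b, Cox8a, Ndufa1, Ndufa4, Ndufa10, Ndufb11, Ndufaf6, Sdhc, Sdhd, Atp5g2 and Atp5g3. Ndufaf2 fell in every comparison. Relative to the median of the 96 genes in the same library, on the log2(FPKM + 1) scale, a measure chosen after the values were seen in which a library factor cancels except for low genes, 29 genes lay higher in all 9 busulfan libraries than in any Con library (31.5% of all genes) and 21 lay lower (29.7%). Without IMA10 replicate 3 these numbers were 37 (45.6%) and 33 (34.7%).

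**Figure D4:**
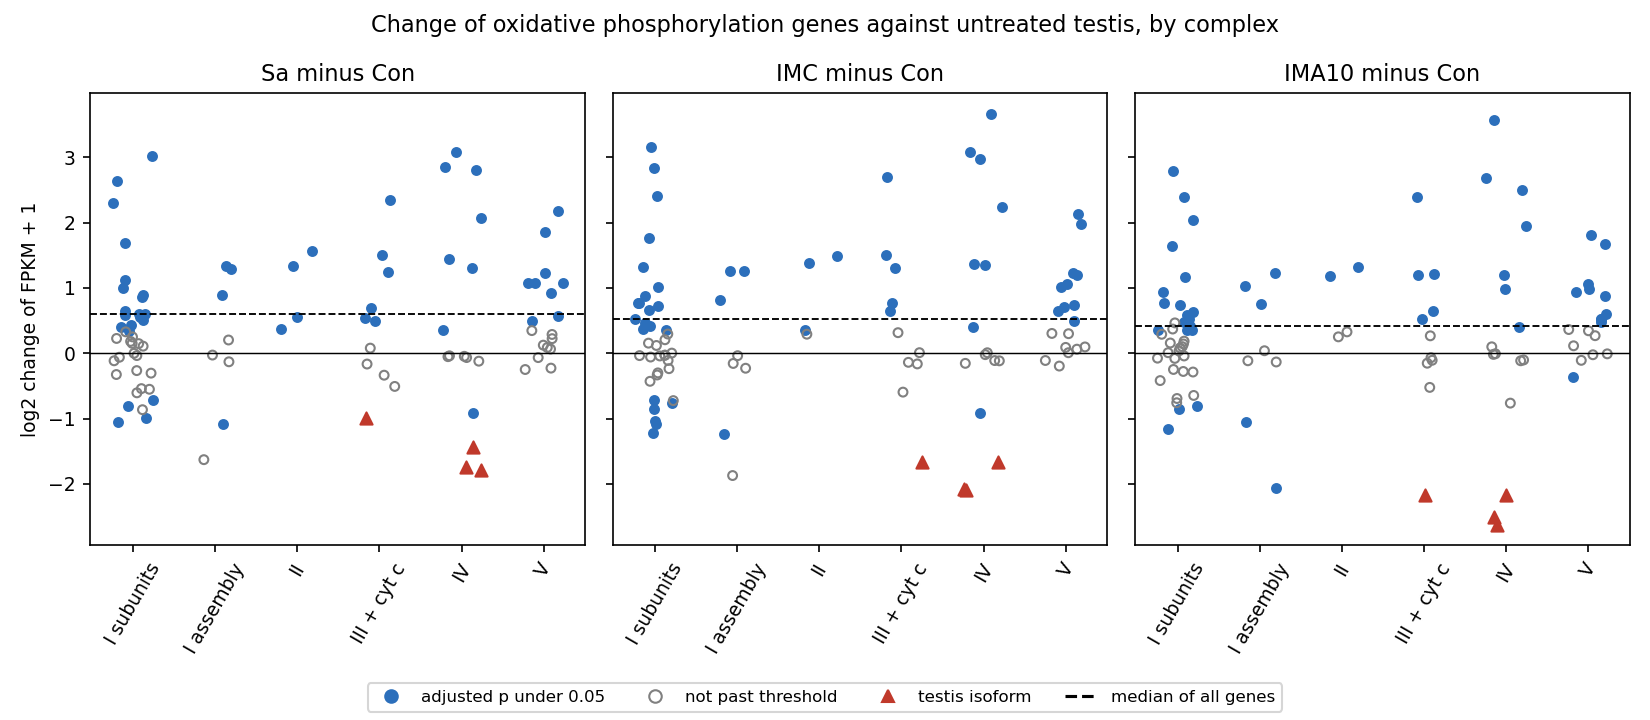
Difference from Con on the log2(FPKM + 1) scale for the 96 genes tested, by complex, in the 3 busulfan groups. Filled circles have a limma adjusted p under 0.05, open circles do not, triangles are the 4 testis isoforms (whatever their p), and the dashed line is the median of all genes.

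Among 39 complex I subunits tested, 17 rose and 4 fell in Sa, 17 and 6 in IMC, and 16 and 3 in IMA10, against 52.0% and 19.2%, 50.8% and 23.3%, and 47.7% and 23.9% of all genes. Median-of-ratios scaling turned this split over, to 4 rises and 22 falls in Sa, 5 and 21 in IMC and 5 and 15 in IMA10. All genes then had 37.8% rises and 39.2% falls in Sa, 38.9% and 40.7% in IMC and 36.3% and 37.6% in IMA10. The counts without IMA10 replicate 3 were 18 and 10, 17 and 8, and 17 and 11. Shares of all genes in that fit were 55.7% and 30.0%, 53.7% and 32.2%, and 51.6% and 35.0%. Ndufb11, an X-linked subunit of the membrane arm, stood at 10.1, 10.7 and 8.85 in Con, 74.5, 94.2 and 94.6 in Sa, 80.6, 96.3 and 114 in IMC and 115, 119 and 29.5 in IMA10. All 9 busulfan libraries were above Con, with IMA10 replicate 3 nearest to it. Ndufb11 rose by 3.02 ± 0.44 (SE) in Sa, 3.16 in IMC and 2.79 in IMA10 (limma adjusted p of 0.000367, 0.000308 and 0.000957). Ndufa12, an accessory subunit and the complex I gene with the highest Con level, stood at 395, 393 and 376 in Con, 233, 187 and 167 in Sa, 169, 207 and 191 in IMC and 139.8, 166 and 426 in IMA10. It fell in each comparison, with log2 changes of -1.0, -1.04 and -0.85 (limma adjusted p of 0.0254, 0.0208 and 0.0483), and under quantile scaling the differences of -0.54, -0.64 and -0.54 did not pass. Ndufa7, another accessory subunit, stood at 220 ± 14.0 FPKM (SD, n = 3) in Con and 106 ± 13.0 in Sa. Ndufa7 fell by 1.05 in Sa (limma adjusted p = 0.0168), and the difference was -0.64 under quantile scaling, which did not pass.

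The set holds 3 X-linked genes, Ndufb11, Cox7b and Ndufa1, a point noticed after the values were seen. Ndufa1, a small membrane-arm subunit, stood at 11.6, 21.0 and 12.9 in Con, 76.1, 77.3 and 75.7 in Sa, 68.8, 81.9 and 97.9 in IMC and 82.6, 86.6 and 35.2 in IMA10. By log2 change these genes ranked 2, 3 and 7 of 96 in Sa and 2, 4 and 7 in IMC and in IMA10. Over the 667 X-linked genes tested, 61.6% rose in Sa with a median change of 1.17, against 53.2% and 0.62 over 13664 autosomal genes. In IMC the shares were 59.5% and 52.0%, and in IMA10 54.7% and 49.0%. Falls were also a larger share of the X-linked genes, at 171 of the 667 in Sa, 172 in IMC and 180 in IMA10. Over the 13664 autosomal genes they numbered 2477, 3069 and 3152.

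Of the 8 complex I assembly factors, 3 rose and 1 fell in Sa, 3 and 1 in IMC, and 3 and 2 in IMA10, when 52.0% of all genes rose and 19.2% fell in Sa. Median-of-ratios scaling gave 2 and 5, 2 and 5, and 2 and 4. All genes then had 37.8% rises and 39.2% falls in Sa, 38.9% and 40.7% in IMC and 36.3% and 37.6% in IMA10. Without IMA10 replicate 3 the falls numbered 2, 2 and 3, when 30.0%, 32.2% and 35.0% of all genes fell. Ndufaf3 stood at 237, 216 and 214 in Con, 96.5, 67.3 and 55.1 in Sa, 66.0, 82.7 and 39.2 in IMC and 14.9, 31.0 and 299 in IMA10. Its levels ran like those of the testis isoforms, low in IMA10 replicate 1 and above Con in IMA10 replicate 3. The difference from Con was -1.63 in Sa, -1.87 in IMC and -2.06 in IMA10 (limma adjusted p of 0.104, 0.0661 and 0.049), and without IMA10 replicate 3 it was -1.63, -1.87 and -3.31 and passed in all. Ndufaf2 stood at 38.3, 40.9 and 37.5 in Con, 20.1, 18.6 and 15.1 in Sa, 16.6, 16.9 and 14.4 in IMC and 9.63, 14.9 and 40.4 in IMA10 and fell, with log2 changes of -1.09, -1.23 and -1.06 (limma adjusted p of 0.0301, 0.0166 and 0.034). For Ndufaf2, IMA10 replicate 3 lay within the Con range and the other 8 busulfan libraries below it. Ndufaf4 and Ndufaf6 rose from low levels, from 0.90 ± 0.15 and 0.75 ± 0.26 FPKM (SD, n = 3) in Con to 3.83 ± 0.64 and 3.31 ± 0.72 in Sa. The Ndufaf4 change in Sa was 1.27 to 1.45 over the fits that left out 1 library. Under quantile scaling it was 0.74 and did not pass.

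All 4 subunits of complex II, which is also the succinate dehydrogenase of the citric acid cycle, rose in Sa, as did 3 in IMC and 2 in IMA10, when 52.0%, 50.8% and 47.7% of all genes rose. With median-of-ratios scaling 2 rose and 1 fell in Sa and in IMC, and 2 rose and none fell in IMA10. Over all genes that scaling gave 37.8% rises and 39.2% falls in Sa, 38.9% and 40.7% in IMC and 36.3% and 37.6% in IMA10. Sdhc, a membrane anchor, stood at 32.5, 31.9 and 29.4 in Con, 99.7, 88.6 and 95.6 in Sa, 80.1, 92.0 and 96.8 in IMC and 95.8, 89.2 and 59.5 in IMA10 and rose by 1.57 ± 0.19 (SE) in Sa, 1.49 in IMC and 1.33 in IMA10 (limma adjusted p of 0.000297, 0.000308 and 0.000862). Sdhd, the other anchor, rose from 30.4 ± 0.84 in Con to 78.1 ± 3.45 in Sa (FPKM, SD, n = 3). The iron-sulfur subunit Sdhb rose by 0.37 in Sa (limma adjusted p = 0.0346), a direction that turned to -0.43 under median-of-ratios scaling. Within complex II the anchors thus moved further than Sdhb and the catalytic Sdha, which differed from Con by 0.55, 0.36 and 0.25, although these differences between subunits were not tested.

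In complex III with cytochrome c, 6 of 11 genes rose in Sa and 5 in IMC and in IMA10, and none fell, when 52.0% of all genes rose and 19.2% fell in Sa. These counts are for the values as deposited. Median-of-ratios scaling gave 3 rises and 4 falls in Sa and 3 and 5 in IMC and in IMA10. All genes then had 37.8% rises and 39.2% falls in Sa, 38.9% and 40.7% in IMC and 36.3% and 37.6% in IMA10. Without IMA10 replicate 3, 3 of the 11 genes fell in each comparison, when 30.0%, 32.2% and 35.0% of all genes fell. Cyc1, the cytochrome c1 subunit that hands electrons to cytochrome c, stood at 32.6, 33.8 and 28.9 in Con, 101, 88.9 and 86.6 in Sa, 82.5, 94.6 and 99.99 in IMC and 83.3, 83.9 and 57.4 in IMA10 and rose by 1.51 ± 0.18 (SE) in Sa, 1.51 in IMC and 1.19 in IMA10 (limma adjusted p of 0.000291, 0.000283 and 0.000916). Uqcrc1, a core protein with the highest Con level of this class, stood at 254, 235 and 221 in Con, 182, 161 and 156 in Sa, 142, 176 and 151 in IMC and 122, 122 and 298 in IMA10. It lay below Con in all Sa and IMC libraries and differed by -0.51, -0.60 and -0.52, which did not pass. The differences passed without IMA10 replicate 3 (-0.51, -0.60 and -0.95) and with median-of-ratios scaling.

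Of 16 complex IV genes tested, 7 rose and 1 fell in Sa and in IMC, and 7 rose and 2 fell in IMA10, when 52.0% of all genes rose and 19.2% fell in Sa. With median-of-ratios scaling 6 rose and 8 fell in Sa, and 6 rose and 9 fell in IMC and in IMA10. Over all genes that scaling gave 37.8% rises and 39.2% falls in Sa, 38.9% and 40.7% in IMC and 36.3% and 37.6% in IMA10. The 7 that rose in Sa with the values as deposited were Cox4i2, Cox6a1, Cox6b1, Cox7a1, Cox7b, Cox8a and Cox7a2l. Cox7a2l is a relative of Cox7a2 known for joining complexes into supercomplexes. The 5 subunits without a testis isoform did not pass. Under median-of-ratios scaling all 5 fell in each comparison with Con, and under quantile scaling their differences were positive, with Cox4i1, Cox5a and Cox6c passing in Sa. With IMA10 replicate 3 left out, 4 complex IV genes fell in Sa, 4 in IMC and 6 in IMA10. In that fit 30.0%, 32.2% and 35.0% of all genes fell. Cox5a ranged from 254 to 275 in Con and from 222 to 327 after busulfan, and Cox5b from 264 to 286 and from 192 to 369.

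Among the 18 genes of complex V, 9 rose and none fell in Sa, 10 rose and none fell in IMC, and 10 rose and 1 fell in IMA10, when 52.0% of all genes rose and 19.2% fell in Sa. Here too median-of-ratios scaling turned the split over, to 2 rises and 9 falls in Sa, 3 and 6 in IMC and 2 and 3 in IMA10. All genes then had 37.8% rises and 39.2% falls in Sa, 38.9% and 40.7% in IMC and 36.3% and 37.6% in IMA10. With IMA10 replicate 3 left out, 2 of the 18 genes fell in Sa, none in IMC and 1 in IMA10. In that fit 30.0%, 32.2% and 35.0% of all genes fell. Atp5g1, Atp5g2 and Atp5g3 encode the same mature protein, the c subunit of the rotor ring. Atp5g3 stood at 47.4, 51.3 and 42.1 in Con, 188, 240.1 and 222 in Sa, 166, 194 and 282 in IMC and 222, 214 and 96.5 in IMA10 and rose by 2.18 ± 0.31 (SE) in Sa, 2.13 in IMC and 1.81 in IMA10 (limma adjusted p of 0.000364, 0.000323 and 0.00109). Atp5g2 rose by 1.86 ± 0.31 (SE) in Sa, 1.98 in IMC and 1.67 in IMA10 and Atp5g1 by 1.23, 1.23 and 0.98, although Atp5g1 did not pass under median-of-ratios scaling (0.44 in Sa). Atp5b, the catalytic beta subunit, stood at 371, 377 and 356 in Con, 524, 521 and 508 in Sa, 478, 539 and 539.9 in IMC and 531, 499 and 504 in IMA10. It rose by 0.49, 0.49 and 0.47 (limma adjusted p of 0.00442, 0.00425 and 0.00628), and under median-of-ratios scaling the differences were -0.31, -0.23 and -0.11 and did not pass. Atp5mpl, a small membrane subunit, fell in IMA10 by 0.37 (limma adjusted p = 0.0395), a change of -0.07 that did not pass under quantile scaling.

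As a share of all FPKM, the 98 genes made up 1.90 ± 0.07% in Con, 2.49 ± 0.13% in Sa, 2.48 ± 0.17% in IMC and 2.5 ± 0.23% in IMA10 (SD, n = 3). Complex V made up 0.41% in Con, 0.72% in Sa, 0.73% in IMC and 0.68% in IMA10, and complex II 0.036, 0.076, 0.072 and 0.067%. Complex IV was 0.60% in Con, 0.65% in Sa and in IMC and 0.69 ± 0.18% (SD, n = 3) in IMA10. The 8 assembly factors were 0.058% in Con, 0.036% in Sa, 0.032% in IMC and 0.043 ± 0.035% (SD, n = 3) in IMA10, where replicate 3, at 0.083%, was above every Con library.

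None of the 96 genes passed between the busulfan groups when all 12 libraries were fitted, and no gene of the 15472 did (0% of all genes in each of the 3 comparisons). At an unadjusted p under 0.05, limma found 1 of the 96 genes and 134 of all genes for IMC against Sa, 2 and 928 for IMA10 against Sa, and none and 328 for IMA10 against IMC. Atpif1, the inhibitor that limits ATP hydrolysis by complex V, stood at 139, 139 and 143 in Con, 129, 108 and 118 in Sa, 134, 148 and 170.2 in IMC and 163, 174 and 171 in IMA10. IMA10 lay above Sa in all 3 libraries, by 0.52 ± 0.14 (SE, limma adjusted p = 0.64), and IMC was 0.35 from Sa (limma adjusted p of 1). Atp5pb, the b subunit of the peripheral stalk, differed between IMA10 and Sa by -0.39 and Ndufb4 by 0.35, and neither passed.

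Without IMA10 replicate 3, 6 genes were higher and 16 lower in IMA10 than in Sa at a limma adjusted p under 0.05, when 7.38% and 24.7% of all genes were. That library was singled out by its values in these same data, and only IMA10 replicates 1 and 2 remain without it. These calls are thus a description and no support for a difference between IMA10 and Sa. The lower ones included Cyct at -2.46, Cox8c at -2.37, Cox6b2 at -2.18, Cox7b2 at -1.96 and Ndufaf3 at -1.68. The higher ones included Cycs at 0.76, Cox7a1 at 1.18 and Atpif1 at 0.51 (limma adjusted p = 0.014). None of the set passed between IMC and Sa or between IMA10 and IMC without that library. The spermatocyte marker sums were 887 to 1731 in Sa, 531 to 1219 in IMC and 130 to 3882 in IMA10, with IMA10 replicate 3 highest.

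IMA10 replicate 3 lay above the range of the other 8 busulfan libraries in 46 of the 96 genes, below it in 29 and within it in 21. Its median absolute log2 difference from the Con mean was 0.45, against 0.63 for the mean of the other 8. The latter pair sets 1 library against a mean of 8. Neither the counts nor these medians were computed over all genes, so they cannot be read as particular to this set.

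Other mitochondrial genes were read from 3 lists. Of 43 tested assembly and biogenesis factors for the complexes, 26 rose and 4 fell in Sa, 25 and 4 in IMC, and 26 and 2 in IMA10, against 52.0% and 19.2%, 50.8% and 23.3%, and 47.7% and 23.9% of all genes. The medians of the list were 0.74, 0.67 and 0.66, and those of all genes 0.60, 0.52 and 0.41. The counts without IMA10 replicate 3 were 27 and 7, 28 and 8, and 27 and 9. Shares of all genes in that fit were 55.7% and 30.0%, 53.7% and 32.2%, and 51.6% and 35.0%. Oxa1l, which inserts mitochondrial proteins into the inner membrane, rose by 2.31 ± 0.33 (SE) in Sa, 2.38 in IMC and 2.12 in IMA10 (limma adjusted p of 0.000361, 0.000308 and 0.000948). Bcs1l, which matures complex III, rose by 1.73, 1.63 and 1.35. Median-of-ratios scaling gave 17 rises and 17 falls for this list in Sa, 19 and 16 in IMC and 19 and 13 in IMA10. All genes then had 37.8% rises and 39.2% falls in Sa, 38.9% and 40.7% in IMC and 36.3% and 37.6% in IMA10.

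Of 10 tested regulators of mitochondrial DNA and transcription, 8 rose and 1 fell in Sa, 5 and 1 in IMC, and 4 and 1 in IMA10. Over all genes 52.0% rose and 19.2% fell in Sa. Leaving out IMA10 replicate 3 gave 8 and 1, 8 and 2, and 6 and 2. Shares of all genes in that fit were 55.7% and 30.0%, 53.7% and 32.2%, and 51.6% and 35.0%. Under median-of-ratios scaling the list had 3 rises and 2 falls in Sa, against 37.8% and 39.2% of all genes. Quantile scaling gave 2 and 1, against 36.8% and 29.2%. Most of the rises in Sa thus did not hold under the other scalings, while the share of rises over all genes also dropped. The one that fell with all 12 libraries was Tfam, which packages and transcribes mitochondrial DNA, at 52.8, 49.7 and 67.0 in Con, 10.6, 11 and 8.06 in Sa, 8.58, 6.65 and 7.95 in IMC and 8.94, 8.28 and 8.29 in IMA10. All 9 busulfan libraries lay far below Con, and IMA10 replicate 3 was within the range of the others, unlike for the testis isoforms. Tfam fell, with log2 changes of -2.40, -2.71 and -2.59 (limma adjusted p of 4.26e-05, 1.53e-05 and 2.45e-05), which were -3.17, -3.41 and -3.16 under median-of-ratios scaling. The elongating spermatid marker sum of IMA10 replicate 3, at 3493, lay below Con (at least 39300) but above the other 8 busulfan libraries (33.1 to 2028). A relation of Tfam to these markers was not tested. Ssbp1, the mitochondrial single-stranded DNA binding protein, rose by 1.69 ± 0.24 (SE) in Sa, 1.62 in IMC and 1.43 in IMA10.

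Of 24 carriers and entry enzymes, 14 rose and 3 fell in Sa and in IMC, and 13 and 3 in IMA10, with medians of 1.36, 1.26 and 1.05, when 52.0% of all genes rose and 19.2% fell in Sa and the medians of all genes were 0.60, 0.52 and 0.41. Median-of-ratios scaling gave 13 and 7, 13 and 9, and 13 and 8, with medians of 0.57, 0.56 and 0.48. All genes then had 37.8% rises and 39.2% falls in Sa, 38.9% and 40.7% in IMC and 36.3% and 37.6% in IMA10. Their medians were -0.02, -0.04 and -0.04. Leaving out IMA10 replicate 3 gave 15 and 5, 14 and 6, and 15 and 7. Shares of all genes in that fit were 55.7% and 30.0%, 53.7% and 32.2%, and 51.6% and 35.0%. Slc25a5, an ADP/ATP carrier of most tissues, stood at 23.7, 19.7 and 19.4 in Con, 206, 244 and 257 in Sa, 248, 240.3 and 297 in IMC and 342, 297 and 71.6 in IMA10. It rose by 3.43 ± 0.47 (SE) in Sa, 3.58 in IMC and 3.16 in IMA10 (limma adjusted p of 0.000358, 0.000308 and 0.000916), while Slc25a31, the germ cell carrier, stood at 19.0, 22.6 and 21.4 in Con, 31.1, 22.4 and 15.3 in Sa, 16.1, 21.3 and 9.57 in IMC and 2.82, 11.2 and 31.1 in IMA10 and passed in no comparison. Cs, citrate synthase, rose by 1.32, 1.15 and 0.96, and Mdh2, mitochondrial malate dehydrogenase, by 2.46, 2.38 and 2.10. Gpd2, the mitochondrial glycerol-3-phosphate dehydrogenase, stood at 85.5, 87.7 and 98.1 in Con, 8.48, 7.84 and 4.68 in Sa, 5.62, 4.45 and 4.21 in IMC and 2.83, 3.49 and 21.3 in IMA10 and fell by 3.55 in Sa (limma adjusted p = 0.000408). Pdha2, the testis form of the pyruvate dehydrogenase E1 alpha subunit, stood at 109, 115 and 102 in Con, 53.8, 34.5 and 27.0 in Sa, 27.1, 31.9 and 15.4 in IMC and 2.59, 12.2 and 123 in IMA10, against 1.55, 1.58 and 1.25 in Con, 9.63, 13.4 and 13.1 in Sa, 12.4, 9.77 and 14.1 in IMC and 13.4, 13.9 and 4.07 in IMA10 for its X-linked partner Pdha1. This pair, named after its values were seen, resembled the 4 testis pairs, with IMA10 replicate 1 lowest and IMA10 replicate 3 highest for the testis gene.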

How the data were processed

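RNA sequencing of mouse testis was deposited as 1 table of FPKM values, calculated by the authors, per the file headers, with 1 column for each of 12 libraries. The genome build, the aligner and the counting program were not given in the sources used here, and no counts or depths are in the table, so no counting interval can be given. How reads shared with pseudogenes or near copies (such as Ndufb4 and Ndufb4c) were assigned is not stated. Groups and replicate numbers came from the sample labels. Symbols were attached by NCBI Gene ID from RefSeq (GRCm38.p6), which matched 20141 of 20288 numeric IDs, and 1933 rows carried none.

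Values were analysed as log2(FPKM + 1), so changes of low genes are understated. The 15472 genes that reached 1 FPKM in 3 or more libraries were fitted with limma (version 3.58.1, under R version 4.3.3), using a trended variance and 1 mean per group over all 12 libraries, and p-values were adjusted by Benjamini-Hochberg over all genes. Isoform ratios were compared by exact permutation. The procedure was tested on simulated data. Genes named are the isoform pairs, per complex the largest called rise and fall in each comparison with Con and the gene of highest Con level, the 2 smallest p in each direction between busulfan groups and up to 3 genes of each pathway list, from which a selection is printed. Other genes named were chosen after their values were seen. The members, the pathway lists and the markers (12 lists) were chosen with earlier results of these data known. Marker lists for spermatogonia, round spermatids, Leydig cells, macrophages, blood and epididymis were also summed. Alternatives were median-of-ratios and quantile scaling, a pseudocount of 0.1, no filter, a filter of 5 FPKM, fits restricted to both groups of a comparison, a block for the replicate number and leaving out each library.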

Additional observations from a re-analysis of the deposited data

How the results depend on the processing

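The numbers of genes that rose or fell against Con moved with the scaling and with 1 library. Median-of-ratios scaling gave 19, 21 and 20 rises and 49, 47 and 36 falls in Sa, IMC and IMA10, and quantile scaling gave 3, 4 and 3 falls. Fits of only the groups compared gave 20 falls in Sa, 17 in IMC and 0 in IMA10, where 28 genes rose and 28 changed in all, and without the filter IMA10 had 5 falls. For these fits, and for leaving out libraries other than IMA10 replicate 3, the shares of all genes were not computed. Their counts therefore cannot be read as particular to this set. Leaving out 1 library at a time gave 40 to 70 changed genes in Sa (39 to 49 rises, 1 to 21 falls), 40 to 65 in IMC (38 to 48 and 2 to 17), 37 to 69 in IMA10 (37 to 45 and 0 to 24) and 0 to 22 for IMA10 against Sa (0 to 6 and 0 to 16). Over the same fits the ratio differences ranged from -4.53 to -3.65 for Cyct over Cycs, -4.67 to -3.83 for Cox6b2 over Cox6b1, -4.98 to -4.15 for Cox7b2 over Cox7b and -5.48 to -4.57 for Cox8c over Cox8a. Because no busulfan library overlaps Con in these ratios, leaving out a library could not change their direction, and their p says nothing about stability. The cause of these shifts was not tested.

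Same-numbered libraries did not deviate together, since 5 of 18 pairs had a correlation over 0.1 and in 6 the own number was best. With the replicate number as a block, 41 genes rose and 3 fell in Sa, 41 and 6 in IMC, and 37 and 2 in IMA10, against 50.5% and 16.0%, 49.3% and 18.9%, and 45.4% and 19.2% of all genes in that fit.

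Of 1665 values of the named genes under the alternatives, 1456 kept their direction and their side of the threshold, 133 fell below it, 63 passed it and 13 changed sign. Under median-of-ratios scaling Atp5b became -0.31, -0.23 and -0.11 and Sdhb -0.43, -0.43 and -0.26 in Sa, IMC and IMA10, and under quantile scaling Cox4i1 became 0.44, 0.30 and 0.22. With single libraries left out Cox4i1 ranged from -0.13 to 0.023 in Sa and from -0.35 to 0.032 in IMA10. Ndufb5 in IMA10 against IMC ranged from -0.078, without IMA10 replicate 3, to 0.52.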
